A study of Mus musculus with 12 samples.

Results

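The enzymes described here are 30 genes that carry pyruvate into the mitochondrion, run the tricarboxylic acid (TCA) cycle and link it to transamination and NADPH supply. They were taken as a named list from the 24452 genes of the deposited expression table, and the question was how mitochondrial and cytosolic isoforms behaved across 4 groups of mice. All 30 passed the filter on low values, a mean over all 12 libraries of at least 0.5 RPKM (reads normalised to gene length and library total), so none was lost before testing. Of the 30, 25 encode mitochondrial proteins, 4 encode cytosolic proteins (Aco1, Idh1, Mdh1 and Got1), and 1, the fumarase gene Fh1, gives a product found in both places.

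Total RNA of brown adipose tissue from male C57BL/6J Bom mice was sequenced, with 3 libraries per group. ERRKO_CL and ERRKO_PBS are mice labelled ERRαγAd-/-, in which a Cre recombinase under the adiponectin promoter removed floxed ERRα and ERRγ in cells that express adiponectin. WT_CL and WT_PBS are littermates with the same floxed alleles and no Cre, so the control groups carry the floxed genes too. The CL groups received CL316,243, which activates the β3-adrenergic receptor as the nerve signal of cold does, at 1 mg/kg once a day for 10 days by intraperitoneal injection at Zeitgeber time 4, and the PBS groups received the same volume of PBS. All mice were housed at 30 °C, injections began at 10 to 11 weeks of age, the labelled age is 12 weeks, and tissue collection followed the last dose by 24 h. The deletion reaches adipocytes of every depot and leaves other cells of the tissue with both genes. Nothing in the labels ties each library to its own animal, so p-values here reflect only how far libraries of the same group spread. The main fit pools that spread over all 4 groups, so libraries outside a comparison also bear on its p-values.

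The TCA cycle oxidises acetyl-CoA to carbon dioxide and hands the electrons to the respiratory chain. Pyruvate enters the mitochondrion through the Mpc1-Mpc2 carrier and is then either oxidised to acetyl-CoA by the pyruvate dehydrogenase complex or carboxylated to oxaloacetate by pyruvate carboxylase. Several steps have a mitochondrial enzyme and a cytosolic counterpart encoded by another gene, and the cytosolic forms serve lipid synthesis, NADPH supply and the malate-aspartate shuttle. In brown fat the cycle feeds a respiratory chain uncoupled by Ucp1, and ERRα and ERRγ are nuclear receptors known to activate genes of oxidative metabolism through the DNA sequence TCAAGGTCA.

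Recovered gene reads per library, from the second deposited table, ranged from 12468001 to 12954186 in ERRKO_CL, 12822176 to 13263567 in ERRKO_PBS, 8979123 to 9559239 in WT_CL and 8478310 to 9727167 in WT_PBS. The library totals implied by the RPKM, relative to WT_PBS replicate 1, were 1.02 to 1.05 in ERRKO_CL and 0.98 to 1.03 in ERRKO_PBS. They were 1.04 to 1.07 in WT_CL and 0.93 to 1.03 in WT_PBS. The genotypes thus differed in gene reads more than in these totals, and the cause was not tested. On the deposited RPKM scale the median of all 12249 tested genes was shifted by 0.53 (log2) in ERRKO_PBS against WT_PBS and by 0.63 in ERRKO_CL against WT_CL. It was shifted by -0.26 in WT_CL against WT_PBS, by -0.16 in ERRKO_CL against ERRKO_PBS and by 0.09 for the interaction. Levels below are therefore RPKM rescaled so that the typical gene does not differ between libraries (scaled RPKM), and counts are given on both scales. Esrra, the gene of ERRα, lay at 8.37, 6.69 and 8.70 in ERRKO_CL and 8.71, 5.25 and 8.89 in ERRKO_PBS, against 83.1, 75.4 and 78.9 in WT_CL and 46.9, 41.6 and 42.3 in WT_PBS, so every ERRKO library was below every WT library. Esrrg, the gene of ERRγ, lay at 6.36, 6.59 and 8.11 in ERRKO_CL and 3.61, 2.29 and 4.71 in ERRKO_PBS, against 8.12, 6.99 and 5.61 in WT_CL and 8.26, 7.96 and 4.40 in WT_PBS, and these ranges overlap under both treatments. Esrrg was called lower in ERRKO_PBS (log2 change -0.87 ± 0.25, adjusted p = 0.0189) and not in ERRKO_CL (0.03 ± 0.25, adjusted p = 0.944), and whether the counted reads lie in the deleted part of either gene is not stated. Of 8 adipocyte markers, 2 were higher and 2 lower in ERRKO_PBS against WT_PBS, and 3 higher and 2 lower in ERRKO_CL against WT_CL. Not all 8 are particular to brown fat, so these counts do not measure brown identity. Over all tested genes, 15.8% were higher and 18.4% lower in the first comparison, and 19.8% and 21.6% in the second. The markers that fell were Ucp1, at 27.8, 27.6 and 54.4 in ERRKO_CL and 3.26, 3.95 and 6.37 in ERRKO_PBS, against 2963, 1836 and 2250.4 in WT_CL and 484, 315 and 538 in WT_PBS, and Cidea. Plin1, which coats the lipid droplet, and the lipase gene Lipe were higher under both treatments, Adipoq was called higher under CL316,243 alone, and Prdm16, Fabp4 and Pparg were not called. Skeletal muscle transcripts were highest in replicate 3 of both ERRKO groups, and the calls of the 30 enzymes that change without these 2 libraries are given beside the results.

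In ERRKO libraries the 30 enzymes together held a far smaller part of the transcriptome than in WT libraries, and the part was larger with the agonist in both genotypes. Their summed level was 3338 ± 147 scaled RPKM in ERRKO_CL and 2329 ± 201 in ERRKO_PBS, against 13973 ± 401 in WT_CL and 8012 ± 1126 in WT_PBS (SD, n = 3 each). The sum of every ERRKO library lay below that of every WT library. As a share of all deposited RPKM, the list took 1.08%, 1.13% and 1.18% in ERRKO_CL and 0.858%, 0.892% and 0.848% in ERRKO_PBS, against 3.57%, 3.71% and 3.75% in WT_CL and 2.57%, 2.40% and 2.53% in WT_PBS. In bulk tissue, fewer cells of a type and less RNA per cell cannot be told apart.

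The order of the enzymes by level per length also differed. Sucla2, the ADP-forming β subunit of succinyl-CoA ligase, ranked 1 in ERRKO_CL at 395 ± 12.3 scaled RPKM, and likewise in WT_CL at 1526 ± 121 and in WT_PBS at 876 ± 142 (SD, n = 3 each). In ERRKO_PBS rank 1 went to Cs, citrate synthase, at 231 ± 4.88, with Sucla2 next at 188 ± 32.8, the highest Sucla2 library at 222 lying just under the lowest Cs library at 225. Pcx, pyruvate carboxylase, ranked 4 in ERRKO_CL and 3 in ERRKO_PBS, against 20 in WT_CL and 19 in WT_PBS. Idh3b, a regulatory subunit of the NAD-dependent isocitrate dehydrogenase, ranked 16 in both ERRKO groups and 2 in both WT groups. Got1, Me2, Me3 and Nnt were among the 5 lowest in all 4 groups, and the highest value among them was 14.3 scaled RPKM, for Me3 in WT_PBS replicate 3.

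Promoter sequences were available from RefSeq (GRCm38.p6, from 250 bases before to 50 bases after a gene's start) for 27 of the 30 members. They were searched on both strands for AAGGTCA, the core half-site that ERR receptors bind, and for its extensions TNAAGGTCA and TCAAGGTCA, which contain it. AAGGTCA was found for 2 members, Ogdh and Got1, which is 7.41% of members with a promoter, against 5.38% of 27025 genes. TNAAGGTCA was found in 0 of the 27 members and 1.43% of genes, and TCAAGGTCA in 0 members and 0.466% of genes. A match is a description of these letters, and its absence says only that they are not in this window. The share among members was near that over all genes, and no bearing of a match on expression was tested. The promoters of the 2 members with a match are shown because they hold the half-site, and those of the Idh2 and Idh1 pair because its partners moved apart in the results below. Capitals mark the match, which reads TGACCTT where it lies on the opposite strand.
Ogdh, chr11:6291920-6292219, plus strand: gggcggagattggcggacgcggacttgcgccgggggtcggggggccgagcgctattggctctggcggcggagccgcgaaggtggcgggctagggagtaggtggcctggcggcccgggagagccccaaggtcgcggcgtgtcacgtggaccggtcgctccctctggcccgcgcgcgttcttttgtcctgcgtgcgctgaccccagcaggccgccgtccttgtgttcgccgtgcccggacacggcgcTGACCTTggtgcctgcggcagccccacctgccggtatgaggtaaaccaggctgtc
Got1, chr19:43524556-43524855, minus strand: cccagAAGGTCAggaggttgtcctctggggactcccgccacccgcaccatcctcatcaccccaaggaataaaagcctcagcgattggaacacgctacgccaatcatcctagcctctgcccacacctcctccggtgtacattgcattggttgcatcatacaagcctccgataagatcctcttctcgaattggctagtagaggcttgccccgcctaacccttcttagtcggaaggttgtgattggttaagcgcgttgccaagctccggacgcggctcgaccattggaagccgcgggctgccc
Idh2, chr7:80115301-80115600, minus strand: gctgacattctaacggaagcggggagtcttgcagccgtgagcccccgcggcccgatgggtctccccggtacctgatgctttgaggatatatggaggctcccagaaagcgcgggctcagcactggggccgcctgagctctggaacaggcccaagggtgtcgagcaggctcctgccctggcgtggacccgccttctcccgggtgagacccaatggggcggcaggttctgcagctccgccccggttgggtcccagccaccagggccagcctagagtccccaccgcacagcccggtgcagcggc
Idh1, chr1:65186430-65186729, minus strand: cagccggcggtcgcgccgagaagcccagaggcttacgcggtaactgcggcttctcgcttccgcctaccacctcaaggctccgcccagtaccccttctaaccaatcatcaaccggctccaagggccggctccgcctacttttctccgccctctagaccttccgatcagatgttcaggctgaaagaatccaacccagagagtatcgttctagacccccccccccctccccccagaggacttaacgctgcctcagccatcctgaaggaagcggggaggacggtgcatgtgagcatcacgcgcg
Ogdh has 6 annotated promoters in the table, and only the first with a match is printed. The promoters of the list were rich in G and C, with a median of 62.0% over 35 promoters against 52.7% over all 32851.

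The comparison of ERRKO_PBS with WT_PBS asks what the deletion changed without agonist. Most of the pathway fell: 24 of the 30 enzymes were lower in ERRKO_PBS, 3 were higher (Pcx, Aco1 and Idh1) and 3 were not called (Got1, Me2 and Nnt). Of the 25 mitochondrial members, 22 fell and 1 rose, and of the 4 cytosolic members 1 fell and 2 rose. The median change over the list was -1.72 on the log2 scale, against 0.01 over all tested genes. A call is a limma p under 0.05 after Benjamini-Hochberg adjustment across the 12249 genes, and by that rule 18.4% of all tested genes were lower and 15.8% higher. With RPKM as deposited, 21 members were lower and 6 higher.

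At pyruvate entry, both carrier subunits and all 4 catalytic and structural genes particular to the dehydrogenase complex fell. Values are scaled RPKM per library, with the log2 change ± SE in parentheses. Mpc2 lay at 69.0, 101 and 73.1 in ERRKO_PBS, against 178, 175 and 287 in WT_PBS (-1.37 ± 0.19, adjusted p = 0.000124), and its partner Mpc1 changed by -1.40 ± 0.22. Pdhb, the β subunit of the decarboxylating E1 component, lay at 105, 123 and 87.0 in ERRKO_PBS, against 328, 288 and 477 in WT_PBS (-1.77 ± 0.22, adjusted p = 5.81e-05). Dlat, the acetyl-transferring E2 component, lay at 18.9, 20.8 and 18.7 in ERRKO_PBS, against 116, 90.2 and 118 in WT_PBS, which was the largest change at this step (-2.44 ± 0.12, adjusted p = 5.32e-08). The ranges of ERRKO_PBS and WT_PBS did not overlap for any of these. Pdha1, the catalytic E1 α subunit, changed by -1.79 ± 0.17, Pdhx, which tethers the E3 component, by -1.03 ± 0.18, and Dld, the E3 component shared with other dehydrogenases, by -1.91 ± 0.14. Pdpr, the regulatory subunit of the phosphatase that switches the complex on, fell least (-0.64 ± 0.18, adjusted p = 0.0174). Pdpr did not keep its call with RPKM as deposited (-0.08, adjusted p = 0.707). Leaving out WT_PBS replicate 1 gave -0.47 (adjusted p = 0.0709), and leaving out ERRKO_PBS replicate 2 gave -0.56 (adjusted p = 0.0595).

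Pcx, which makes oxaloacetate from pyruvate and thereby refills the cycle, moved the other way. It lay at 174, 205 and 153 in ERRKO_PBS, against 99.8, 85.1 and 114 in WT_PBS, and the ranges did not overlap. The change was 0.83 ± 0.16, adjusted p = 0.00192. Pcx was thus the highest of the 30 changes while the dehydrogenase genes that use the same substrate were lower.

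Within the cycle itself the falls were deep and uneven. Idh3b lay at 69.4, 80.5 and 85.2 in ERRKO_PBS, against 678, 645 and 783 in WT_PBS, with no overlap. Its change of -3.16 ± 0.11, adjusted p = 5.93e-09, an 8.92-fold lower level, was larger than those of its partner subunits Idh3a (-2.13 ± 0.12) and Idh3g (-1.97 ± 0.12). Suclg1, the α subunit that both forms of succinyl-CoA ligase share, lay at 73.9, 98.5 and 82.3 in ERRKO_PBS, against 600.3, 523 and 787 in WT_PBS (-2.89 ± 0.15, adjusted p = 5.49e-08). Ogdh, the E1 component of oxoglutarate dehydrogenase, lay at 31.6, 32.8 and 33.6 in ERRKO_PBS, against 225, 192 and 198 in WT_PBS (-2.63 ± 0.09, adjusted p = 5.04e-09). For all 3 of these genes the groups did not overlap.

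Fh1, fumarase, lay at 57.0, 71.8 and 60.8 in ERRKO_PBS, against 325, 319 and 424 in WT_PBS (-2.48 ± 0.13, adjusted p = 5.07e-08). Dlst, the E2 component of oxoglutarate dehydrogenase, changed by -2.41 ± 0.09, Sucla2 by -2.22 ± 0.15 and Cs by -1.29 ± 0.10. The smallest fall in the cycle was that of Suclg2, the GDP-forming β subunit of succinyl-CoA ligase, at 26.1, 32.5 and 26.3 in ERRKO_PBS, against 39.3, 41.0 and 43.7 in WT_PBS (-0.54 ± 0.09, adjusted p = 0.000735). Suclg2 turned to 0.04 (adjusted p = 0.657) on the deposited scale, so its direction depends on the scaling.

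Among the linked enzymes, Me3, a mitochondrial NADP-dependent malic enzyme, had the largest change of the list. It lay at 0.215, 0.144 and 0.940 in ERRKO_PBS, against 12.6, 13.1 and 14.3 in WT_PBS (-3.99 ± 0.26, adjusted p = 3.84e-07), and the highest ERRKO_PBS library, replicate 3, was far below the lowest WT_PBS library. Me3 passed the filter mainly through its WT libraries. Its ERRKO_PBS values came from 21, 13 and 93 reads, against 822, 782 and 879 in WT_PBS, so they lie near the floor and the size of the change is uncertain. Glud1, glutamate dehydrogenase, lay at 64.3, 76.3 and 69.3 in ERRKO_PBS, against 80.0, 93.4 and 97.9 in WT_PBS (-0.37 ± 0.10, adjusted p = 0.0156). This call turned to 0.22 (adjusted p = 0.0424) on the deposited scale, and it was lost without ERRKO_PBS replicate 1 (-0.31, adjusted p = 0.0627) and without both ERRKO replicate 3 libraries (-0.36, adjusted p = 0.057). Me2, the mitochondrial NAD-dependent malic enzyme, lay at 5.71, 6.22 and 6.05 in ERRKO_PBS, against 4.75, 3.90 and 6.08 in WT_PBS and was not called (0.28 ± 0.20, adjusted p = 0.299). Nnt, the proton-driven transhydrogenase that makes mitochondrial NADPH, lay at 2.51, 2.86 and 4.44 in ERRKO_PBS, against 2.65, 2.23 and 2.46 in WT_PBS and was not called either (0.33 ± 0.19, adjusted p = 0.201). On the deposited scale both Me2 (0.83, adjusted p = 0.00203) and Nnt (0.84, adjusted p = 0.00197) were called higher.

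The comparison of ERRKO_CL with WT_CL asks the same under the agonist. It gave 23 members lower, 3 higher (Pcx, Me2 and Nnt) and 4 not called (Aco1, Idh1, Got2 and Glud1), with a median change of -1.93 against 0.01 over all tested genes. Of the 25 mitochondrial members 20 fell and 3 rose, and of the 4 cytosolic members 2 fell and 2 were not called. Over all tested genes, 21.6% were lower and 19.8% higher by the same rule. As deposited, RPKM gave 22 members lower and 6 higher. The 2 genotype comparisons use different libraries in every group, and the fit shares 1 estimate of spread between them.

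Me3 and Idh3b again headed the list, joined by the oxoglutarate and pyruvate dehydrogenases. Me3 lay at 0.146, 0.286 and 0.485 in ERRKO_CL, against 6.72, 9.68 and 7.68 in WT_CL (-3.41 ± 0.26, adjusted p = 8.96e-07). Its ERRKO_CL values, from 13, 24 and 41 reads, are again near the floor. Idh3b lay at 103, 103 and 111 in ERRKO_CL, against 1109.8, 1087 and 1118 in WT_CL (-3.38 ± 0.11, adjusted p = 1.38e-09), a 10.4-fold lower level. Neither gene had an ERRKO_CL library near the lowest WT_CL library. Ogdh lay at 38.2, 42.5 and 42.8 in ERRKO_CL, against 354, 343 and 366 in WT_CL (-3.09 ± 0.09, adjusted p = 5.64e-10). Pdhb lay at 109, 101 and 149 in ERRKO_CL, against 795, 1156 and 949 in WT_CL (-3.02 ± 0.22, adjusted p = 4.69e-07). Dlst lay at 75.0, 71.3 and 77.5 in ERRKO_CL, against 602, 599.8 and 612 in WT_CL (-3.01 ± 0.09, adjusted p = 1.15e-09). For all 3 the highest ERRKO_CL library was far below the lowest WT_CL library.

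Pcx lay at 202, 245 and 250.2 in ERRKO_CL, against 130.4, 185 and 142 in WT_CL (0.62 ± 0.16, adjusted p = 0.00905), higher in every ERRKO_CL library. Me2 lay at 5.72, 5.77 and 9.27 in ERRKO_CL, against 4.21, 3.79 and 2.71 in WT_CL (0.85 ± 0.20, adjusted p = 0.00469), with a single ERRKO_CL library, replicate 3, well above the others. Nnt lay at 1.97, 2.13 and 2.96 in ERRKO_CL, against 1.09, 1.47 and 1.44 in WT_CL (0.63 ± 0.19, adjusted p = 0.0177), and this call was lost without WT_CL replicate 1 (0.53, adjusted p = 0.0719) and without ERRKO_CL replicate 3 (0.48, adjusted p = 0.0779). Nnt shares 47.4% of its exon bases with a second annotated entry of the same name, so its value may depend on how reads were assigned. Glud1 lay at 122, 106 and 105 in ERRKO_CL, against 105, 107 and 104 in WT_CL, with overlapping ranges (0.07 ± 0.10, adjusted p = 0.621). On the deposited scale Aco1 (0.79), Idh1 (0.79) and Glud1 (0.78) were called higher in ERRKO_CL, with adjusted p-values of 3.88e-05, 1.97e-05 and 9.55e-06.

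**Figure D1:**
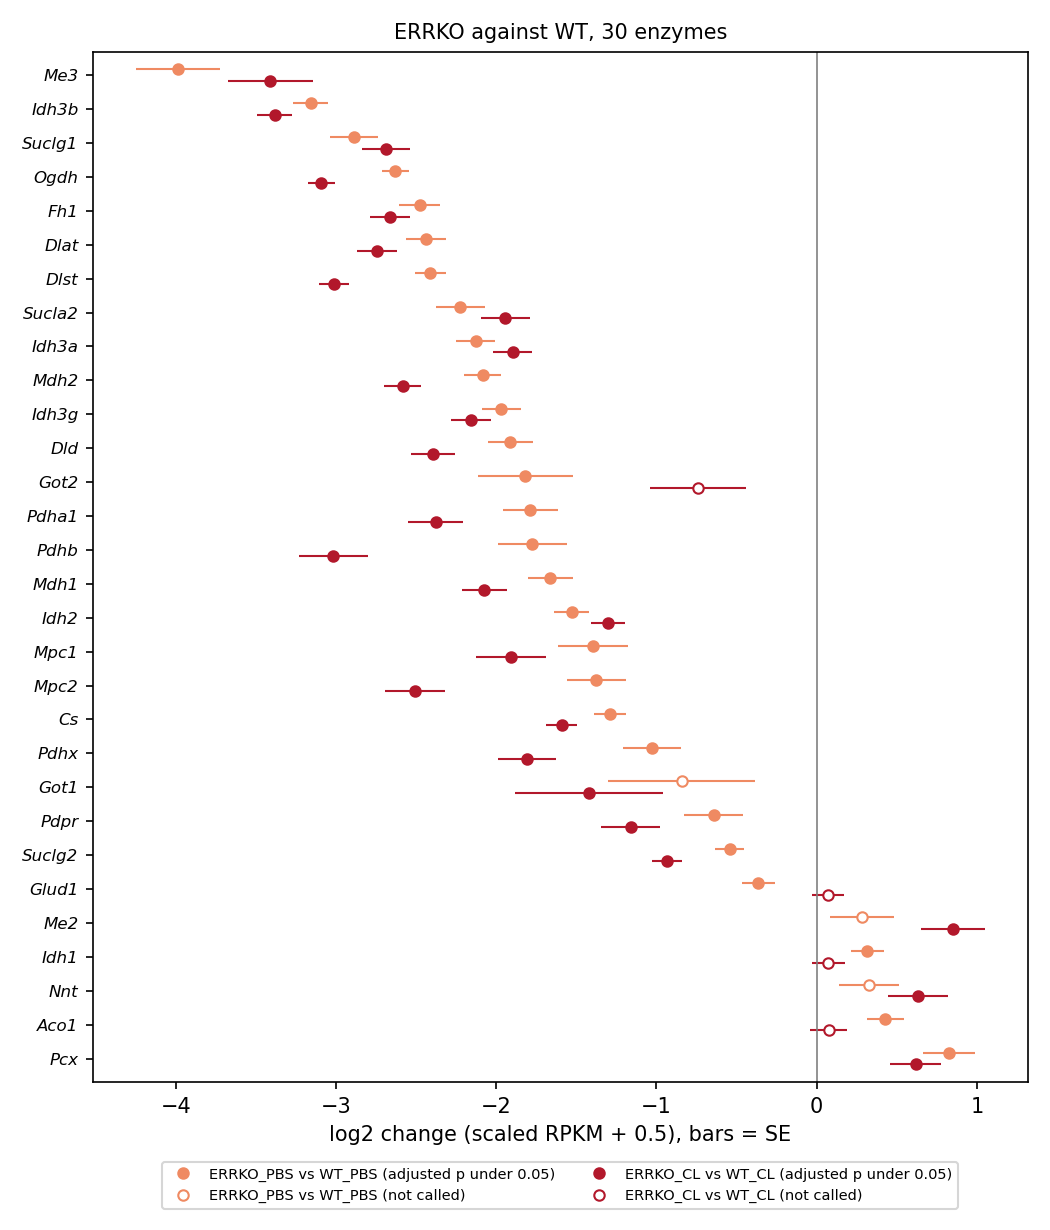
Log2 change (scaled RPKM plus 0.5) of each of the 30 enzymes in ERRKO_PBS against WT_PBS and in ERRKO_CL against WT_CL, ordered by the change under PBS, with bars of 1 SE (n = 3 libraries per group) and filled points for adjusted p under 0.05. Me3 and Idh3b lie below -3 under both treatments, Pcx lies above 0 under both, and Got2 is called lower under PBS and not called under CL316,243.

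The isoform pairs of the list show where mitochondrial and cytosolic partners parted. Ratios between partners were taken within each library from deposited RPKM, so they do not depend on the scaling. Each was tested with an exact two-sided permutation test over the 12 libraries, with labels exchanged within treatment (for genotype) or within genotype (for the agonist). The test has 400 permutations and a smallest possible p of 0.005, and p-values were adjusted over 22 tests of 11 ratios.

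The NADP-dependent isocitrate dehydrogenases differed most by genotype among the pairs inside the list. Mitochondrial Idh2 lay at 109, 119 and 121 in ERRKO_CL and 102, 112 and 111 in ERRKO_PBS, against 311, 246 and 312 in WT_CL and 305, 304 and 330.4 in WT_PBS. Cytosolic Idh1 lay at 176, 164 and 168 in ERRKO_CL and 111, 106 and 114 in ERRKO_PBS, against 142, 185 and 158 in WT_CL and 83.8, 85.4 and 96.7 in WT_PBS. Idh2 was lower in every ERRKO library, while Idh1 was lowest in WT_PBS and rose with the agonist in both genotypes. Idh2 changed by -1.53 ± 0.11, adjusted p = 5.73e-07 under PBS and by -1.30 ± 0.11, adjusted p = 1.48e-06 under CL316,243. Idh1 changed by 0.32 ± 0.10, adjusted p = 0.0341 under PBS and by 0.07 ± 0.10, adjusted p = 0.612 under CL316,243. The Idh1 call under PBS was lost without WT_PBS replicate 1 (adjusted p = 0.101), WT_PBS replicate 2 (0.0908), ERRKO_PBS replicate 1 (0.0812) or ERRKO_PBS replicate 3 (0.102), and without both ERRKO replicate 3 libraries (0.134).

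The ratio of Idh2 to Idh1 was 0.622, 0.722 and 0.723 in ERRKO_CL and 0.925, 1.05 and 0.967 in ERRKO_PBS, against 2.19, 1.33 and 1.98 in WT_CL and 3.64, 3.56 and 3.42 in WT_PBS. Idh1 was thus the more abundant transcript in all 3 ERRKO_CL libraries, the pair was close to equal in ERRKO_PBS, and Idh2 led in all 6 WT libraries. The log2 ratio was lower in ERRKO than in WT (-1.62, exact p = 0.005, adjusted p = 0.0138) and lower with the agonist than with PBS (-0.75, exact p = 0.005, adjusted p = 0.0138). Neither promoter of the pair printed above holds the half-site.

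The malate dehydrogenases fell together. Mitochondrial Mdh2 lay at 126, 124 and 137 in ERRKO_CL and 90.5, 99.9 and 105 in ERRKO_PBS, against 794, 721 and 811 in WT_CL and 394, 385 and 486 in WT_PBS. Cytosolic Mdh1 lay at 102, 91.9 and 113 in ERRKO_CL and 88.1, 106 and 99.7 in ERRKO_PBS, against 418, 446 and 427 in WT_CL and 288, 267 and 389 in WT_PBS. Both were lower in every ERRKO library than in any WT library, and Mdh1 was the only cytosolic member called lower under PBS. Mdh2 changed by -2.08 ± 0.11, adjusted p = 7.88e-08 under PBS and by -2.58 ± 0.11, adjusted p = 1.15e-08 under CL316,243. Mdh1 changed by -1.66 ± 0.14, adjusted p = 2.45e-06 under PBS and by -2.07 ± 0.14, adjusted p = 2.76e-07 under CL316,243. The ratio of Mdh2 to Mdh1 was 1.24, 1.34 and 1.22 in ERRKO_CL and 1.03, 0.942 and 1.06 in ERRKO_PBS, against 1.90, 1.62 and 1.90 in WT_CL and 1.37, 1.44 and 1.25 in WT_PBS. Its log2 value was lower in ERRKO (-0.47, exact p = 0.005, adjusted p = 0.0138) and higher with the agonist (0.37, exact p = 0.005, adjusted p = 0.0138).

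The aspartate aminotransferases, the transaminases of the malate-aspartate shuttle, were the least settled pair. Mitochondrial Got2 lay at 4.01, 4.80 and 7.65 in ERRKO_CL and 6.30, 4.65 and 13.3 in ERRKO_PBS, against 8.88, 9.32 and 9.38 in WT_CL and 29.9, 28.1 and 23.8 in WT_PBS. Cytosolic Got1 lay at 1.80, 2.41 and 3.47 in ERRKO_CL and 2.17, 1.30 and 9.28 in ERRKO_PBS, against 7.16, 7.23 and 8.08 in WT_CL and 6.75, 6.18 and 5.08 in WT_PBS. Got2 was high in WT_PBS alone, and Got1 was low in 5 of 6 ERRKO libraries and highest of all in ERRKO_PBS replicate 3. Got2 changed by -1.82 ± 0.30, adjusted p = 0.000553 under PBS and by -0.74 ± 0.30, adjusted p = 0.0655 under CL316,243. Got1 changed by -0.84 ± 0.46, adjusted p = 0.179 under PBS and by -1.42 ± 0.46, adjusted p = 0.0265 under CL316,243. Without ERRKO_PBS replicate 3 the Got1 change under PBS was -1.56 (adjusted p = 0.000352) and the Got2 change under CL316,243 was called (-0.74, adjusted p = 0.00938). Got2 under CL316,243 was also called without ERRKO_PBS replicate 2 (-0.74, adjusted p = 0.0348) and without ERRKO_CL replicate 3 (-0.98, adjusted p = 0.0282). The Got1 call under CL316,243 was lost without any single one of the 3 WT_CL libraries or of ERRKO_CL replicates 1 and 2 (adjusted p between 0.0574 and 0.0871).

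The ratio of Got2 to Got1 was 2.23, 1.99 and 2.21 in ERRKO_CL and 2.90, 3.59 and 1.43 in ERRKO_PBS, against 1.24, 1.29 and 1.16 in WT_CL and 4.43, 4.54 and 4.69 in WT_PBS. WT_PBS libraries had the highest ratios and WT_CL the lowest, with no overlap among WT libraries. The genotype difference over both treatments was -0.04, exact p = 0.88, adjusted p = 0.88, made of -0.89 under PBS and 0.80 under CL316,243. The agonist difference was -1.04, exact p = 0.035, adjusted p = 0.0642, and it reached -1.24 (adjusted p = 0.0122) without ERRKO_PBS replicate 3. Got2 has an annotated pseudogene, Got2-ps1, whose reads the authors' counting may have split from it.

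**Figure D2:**
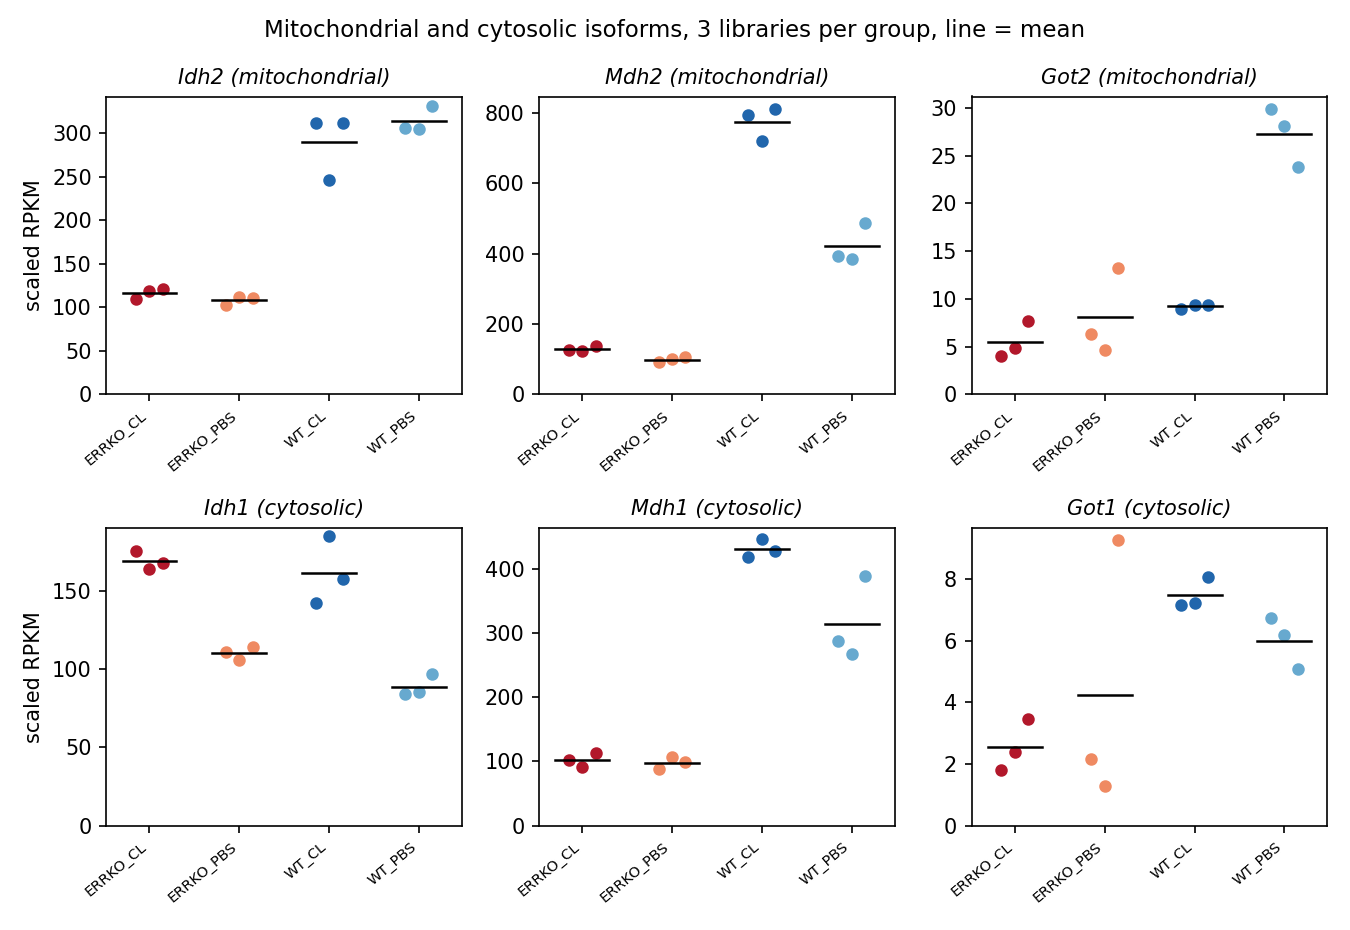
Scaled RPKM of Idh2, Mdh2 and Got2 (mitochondrial, above) and of Idh1, Mdh1 and Got1 (cytosolic, below) in the 3 libraries of each group, with points for libraries and a line for the mean. Idh2, Mdh2 and Mdh1 are lower in all 6 ERRKO libraries than in any WT library, Idh1 is not, and Got1 in ERRKO_PBS spans 1.30 to 9.28.

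Aco1, the cytosolic aconitase that also serves as an iron-regulatory protein, lay at 73.9, 72.7 and 70.2 in ERRKO_CL and 55.6, 49.6 and 59.2 in ERRKO_PBS, against 68.7, 70.2 and 66.8 in WT_CL and 40.1, 34.1 and 48.7 in WT_PBS. It was called higher in ERRKO_PBS (0.43 ± 0.12, adjusted p = 0.0133), a call lost without ERRKO_PBS replicate 3 (0.37, adjusted p = 0.0543) or both ERRKO replicate 3 libraries (0.37, adjusted p = 0.0742), and not called in ERRKO_CL (0.08 ± 0.12, adjusted p = 0.642). The ERRKO_PBS libraries lay above the WT_PBS libraries without overlap.

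The malic enzymes were compared with cytosolic Me1, the lipogenic form, which is outside the list. Me1 lay at 70.7, 83.9 and 96.1 in ERRKO_CL and 82.7, 98.9 and 52.0 in ERRKO_PBS, against 58.8, 128 and 70.2 in WT_CL and 31.6, 23.4 and 74.3 in WT_PBS. The ratio of Me3 to Me1 was 0.00207, 0.00341 and 0.00505 in ERRKO_CL and 0.00260, 0.00146 and 0.0181 in ERRKO_PBS, against 0.114, 0.0756 and 0.109 in WT_CL and 0.399, 0.560 and 0.192 in WT_PBS. Its log2 value was lower in ERRKO (-5.66, exact p = 0.005, adjusted p = 0.0138), and the agonist difference was not called (-1.07, exact p = 0.13, adjusted p = 0.159). Me3 had 13 to 93 reads in the ERRKO libraries, so the size of the genotype difference is uncertain. The ratio of Me2 to Me1 was called for neither genotype (0.11, exact p = 0.775, adjusted p = 0.812) nor agonist (-0.76, exact p = 0.09, adjusted p = 0.131), and its ranges overlap between the genotypes.

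Of 5 ratios between subunits, either partners in 1 complex or the alternative β subunits of succinyl-CoA ligase, 2 differed by genotype. The ratio of Sucla2 to Suclg2, the ADP- and GDP-forming β subunits of succinyl-CoA ligase, was 11.6, 11.3 and 10.9 in ERRKO_CL and 6.01, 6.85 and 6.96 in ERRKO_PBS, against 25.6, 19.5 and 22.8 in WT_CL and 20.7, 18.9 and 23.8 in WT_PBS. Its log2 value was lower in ERRKO (-1.34, exact p = 0.005, adjusted p = 0.0138), and the agonist difference was not called (0.43, exact p = 0.03, adjusted p = 0.0642). Without WT_PBS replicate 3 (0.48) or WT_CL replicate 2 (0.48) the agonist difference passed, at an adjusted p of 0.033 each. Sucla2 led Suclg2 in every library, by a smaller factor in ERRKO. The ratio of the catalytic Idh3a to Idh3b was 2.17, 2.34 and 2.17 in ERRKO_CL and 1.53, 1.51 and 1.41 in ERRKO_PBS, against 0.827, 0.749 and 0.803 in WT_CL and 0.735, 0.681 and 0.759 in WT_PBS. Idh3a exceeded Idh3b in all 6 ERRKO libraries and fell short of it in all 6 WT libraries. Its log2 value was higher in ERRKO (1.26, exact p = 0.005, adjusted p = 0.0138) and with the agonist (0.36, exact p = 0.01, adjusted p = 0.0244); the agonist call was lost without both ERRKO replicate 3 libraries (0.35, adjusted p = 0.0667).

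Other partner subunits were not called for genotype. The ratio of Idh3a to Idh3g differed by 0.05, exact p = 0.61, adjusted p = 0.706. The ratio of Pdha1 to Pdhb was 1.39, 1.55 and 1.43 in ERRKO_CL and 1.49, 1.40 and 1.55 in ERRKO_PBS, against 0.922, 0.907 and 0.973 in WT_CL and 1.57, 1.65 and 1.27 in WT_PBS. It lay below 1 in all 3 WT_CL libraries and above 1 in the 9 others, yet neither genotype (0.32, exact p = 0.06, adjusted p = 0.0943) nor agonist (-0.35, exact p = 0.035, adjusted p = 0.0642) passed the adjusted threshold over both strata. The agonist difference passed without ERRKO_PBS replicate 2 (-0.37, adjusted p = 0.044) or ERRKO_CL replicate 2 (-0.37, adjusted p = 0.033). The ratio of Mpc1 to Mpc2 was 1.87, 1.71 and 1.90 in ERRKO_CL and 1.67, 1.51 and 1.37 in ERRKO_PBS, against 1.06, 1.35 and 1.21 in WT_CL and 1.52, 1.49 and 1.58 in WT_PBS, and it was not called for genotype (0.29, exact p = 0.06, adjusted p = 0.0943) or agonist (-0.04, exact p = 0.75, adjusted p = 0.812). Annotated overlaps with other genes reach 16.1% of exon bases for Pdha1 and 23.1% for Mpc1, which also has a pseudogene, so these 2 genes are less certain than their partners.

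**Figure D3:**
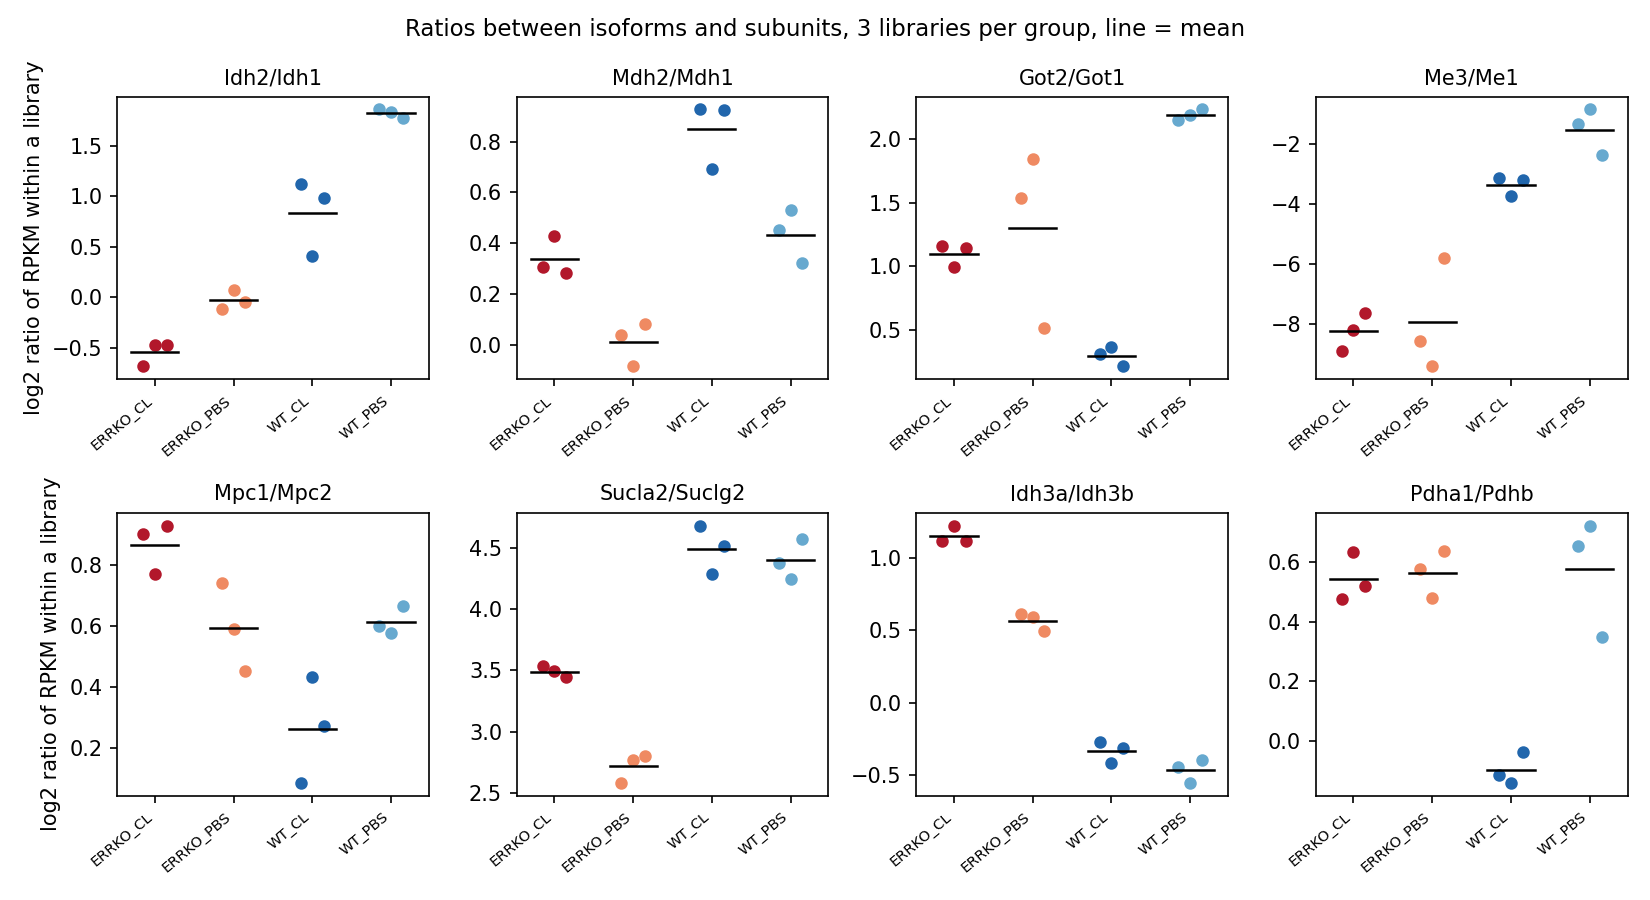
Log2 ratios of deposited RPKM within each library for 4 isoform pairs and 4 subunit pairs, 3 libraries per group, with a line for the group mean. Idh2/Idh1, Me3/Me1 and Sucla2/Suclg2 are lower and Idh3a/Idh3b is higher in all 6 ERRKO libraries, while Got2/Got1 is highest in WT_PBS and lowest in WT_CL.

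The comparison of WT_CL with WT_PBS asks what the agonist did with the receptors present. It raised most of the pathway: 23 of the 30 enzymes were higher, 2 lower (Got2 and Nnt) and 5 not called (Idh2, Got1, Me2, Me3 and Glud1). The median change was 0.75, against 0.01 over all tested genes, of which 18% were higher and 12.6% lower. On the deposited scale, where the typical gene was lower in WT_CL, 18 members were higher and 5 lower. WT_CL and WT_PBS also serve as controls of the genotype comparisons, so these results are not independent of those.

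Pyruvate entry led the rise. Mpc2 lay at 622, 681 and 624 in WT_CL, against 178, 175 and 287 in WT_PBS (1.63 ± 0.19, adjusted p = 8.78e-05). Pdhb lay at 795, 1156 and 949 in WT_CL, against 328, 288 and 477 in WT_PBS (1.42 ± 0.22, adjusted p = 0.00058). Pdhx lay at 75.7, 89.7 and 74.1 in WT_CL, against 27.1, 24.1 and 39.8 in WT_PBS (1.41 ± 0.18, adjusted p = 0.000193). Every WT_CL library was above every WT_PBS library for these, with WT_PBS replicate 3 the highest of its group each time. Mpc1 changed by 1.28 ± 0.22, adjusted p = 0.00122 and Dlat by 1.08 ± 0.12, adjusted p = 9.67e-05. In the cycle itself Dlst (1.06), the shared E3 component Dld (1.02) and Mdh2 (0.89) rose most, and the cytosolic members Idh1 (0.86 ± 0.10), Aco1 (0.75 ± 0.12) and Mdh1 (0.47 ± 0.14) rose as well. The Mdh1 rise was lost without WT_PBS replicate 1 or 2 or WT_CL replicate 2 or 3 (adjusted p between 0.0583 and 0.0974), that of Suclg1 (0.52 ± 0.15, adjusted p = 0.0198) without the same 4 libraries (between 0.0508 and 0.0824), and that of Pcx (0.60 ± 0.16, adjusted p = 0.0149) without WT_PBS replicate 2 or WT_CL replicate 2 (0.0647 and 0.0640).

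Got2 went against the rest, at 8.88, 9.32 and 9.38 in WT_CL, against 29.9, 28.1 and 23.8 in WT_PBS (-1.51 ± 0.30, adjusted p = 0.00283), a 2.85-fold lower level. Nnt lay at 1.09, 1.47 and 1.44 in WT_CL, against 2.65, 2.23 and 2.46 in WT_PBS (-0.69 ± 0.19, adjusted p = 0.0161), a call lost without WT_CL replicate 1 (-0.59, adjusted p = 0.0624). Idh2 (-0.12 ± 0.11, adjusted p = 0.429), Me3 (-0.71 ± 0.26, adjusted p = 0.0611), Me2 (-0.41 ± 0.20, adjusted p = 0.143), Got1 (0.30 ± 0.46, adjusted p = 0.663) and Glud1 (0.23 ± 0.10, adjusted p = 0.116) were not called. Me3 was called lower without ERRKO_PBS replicate 3 (-0.71, adjusted p = 0.0084), as it was when ERRKO_PBS replicate 2 (adjusted p = 0.0428) or both ERRKO replicate 3 libraries (adjusted p = 0.00528) were left out.

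The comparison of ERRKO_CL with ERRKO_PBS asks what the agonist did in mice with the adipocyte deletion, in whose tissue Esrrg transcript remained. It called 14 members higher, 0 lower and 16 not called, with a median change of 0.40 against 0.02 over all tested genes, of which 6.68% were higher and 3.62% lower. At an unadjusted p under 0.05, limma had 0 members lower, and edgeR and DESeq2 on recovered reads had 1 each. After adjustment edgeR called 10 members higher and DESeq2 18, and both called 0 lower. With RPKM as deposited, 7 members were higher and 0 lower. The count moved between 6 and 18 when single libraries were left out, the highest without WT_PBS replicate 3. It was 6 without ERRKO_PBS replicate 1, 8 without ERRKO_CL replicate 2 or 3, 9 without WT_CL replicate 3, ERRKO_PBS replicate 3 or ERRKO_CL replicate 1, and 5 without both ERRKO replicate 3 libraries. Calls of Idh1, Idh3a, Sucla2, Dlat and Glud1 held under all 24 alternatives run. The other 9 were lost without both ERRKO replicate 3 libraries, with adjusted p of 0.0534 for Idh3g, 0.0932 for Dlst, 0.102 for Suclg1, 0.109 for Aco1, 0.118 for Idh3b, 0.167 for Ogdh, 0.253 for Dld, 0.253 for Pdhx and 0.276 for Mpc1.

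Sucla2 lay at 403, 402 and 381 in ERRKO_CL, against 157, 222 and 183 in ERRKO_PBS (1.09 ± 0.15, adjusted p = 0.00145). Idh3a lay at 223, 239.8 and 242 in ERRKO_CL, against 106, 121 and 119.8 in ERRKO_PBS (1.02 ± 0.12, adjusted p = 0.00059). Dlat lay at 31.1, 31.3 and 39.0 in ERRKO_CL, against 18.9, 20.8 and 18.7 in ERRKO_PBS (0.77 ± 0.12, adjusted p = 0.00342). The groups did not overlap for any of these, and the ERRKO_CL levels of all 3 were still below every WT_PBS library. Mpc1 (0.77 ± 0.22, adjusted p = 0.0459) and Suclg1 (0.73 ± 0.15, adjusted p = 0.0117) completed the 5 largest rises. Glud1, not called in WT, lay at 122, 106 and 105 in ERRKO_CL, against 64.3, 76.3 and 69.3 in ERRKO_PBS (0.66 ± 0.10, adjusted p = 0.00265), and Idh1 changed by 0.62 ± 0.10, adjusted p = 0.00441. Of the other isoforms, Aco1 was called (0.40 ± 0.12, adjusted p = 0.0482), while Idh2 (0.10 ± 0.11, adjusted p = 0.603), Mdh2 (0.39 ± 0.11, adjusted p = 0.0525), Mdh1 (0.06 ± 0.14, adjusted p = 0.844), Got2 (-0.44 ± 0.30, adjusted p = 0.407), Got1 (-0.28 ± 0.46, adjusted p = 0.775), Me2 (0.16 ± 0.20, adjusted p = 0.684) and Me3 (-0.14 ± 0.26, adjusted p = 0.813) were not.

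The interaction, the response in ERRKO minus that in WT, tests whether the agonist acted differently. It called 0 members higher and 3 lower, with 27 not called, against 1.89% higher and 2.02% lower over all tested genes. The median over the list was -0.30. At an unadjusted p under 0.05 limma had 2 members higher, Got2 and Glud1, and 9 lower. At that threshold edgeR had 1 higher and 10 lower, and DESeq2 3 higher and 10 lower. After adjustment edgeR called 0 higher and 3 lower, and DESeq2 1 higher and 5 lower. Pdhb had 0.18 in ERRKO, not called, and 1.42 in WT (-1.24 ± 0.31, adjusted p = 0.0463 for the difference). Mpc2 had 0.49 in ERRKO, not called, and 1.63 in WT (-1.13 ± 0.26, adjusted p = 0.0368). Dlst had 0.46 in ERRKO and 1.06 in WT (-0.60 ± 0.13, adjusted p = 0.0322). All 3 belong to pyruvate entry or the oxoglutarate dehydrogenase, and each responded less in ERRKO. Without single libraries the calls were often lost: Dlst was kept without 1 of the 12, Mpc2 without 2 and Pdhb without 3, with adjusted p up to 0.0837, 0.0886 and 0.107. Without both ERRKO replicate 3 libraries the calls of Dlst (-0.60, adjusted p = 0.123) and Mpc2 (-1.21, adjusted p = 0.0906) were lost, and Got2 was called higher (1.24 ± 0.20, adjusted p = 0.0171).

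**Figure D4:**
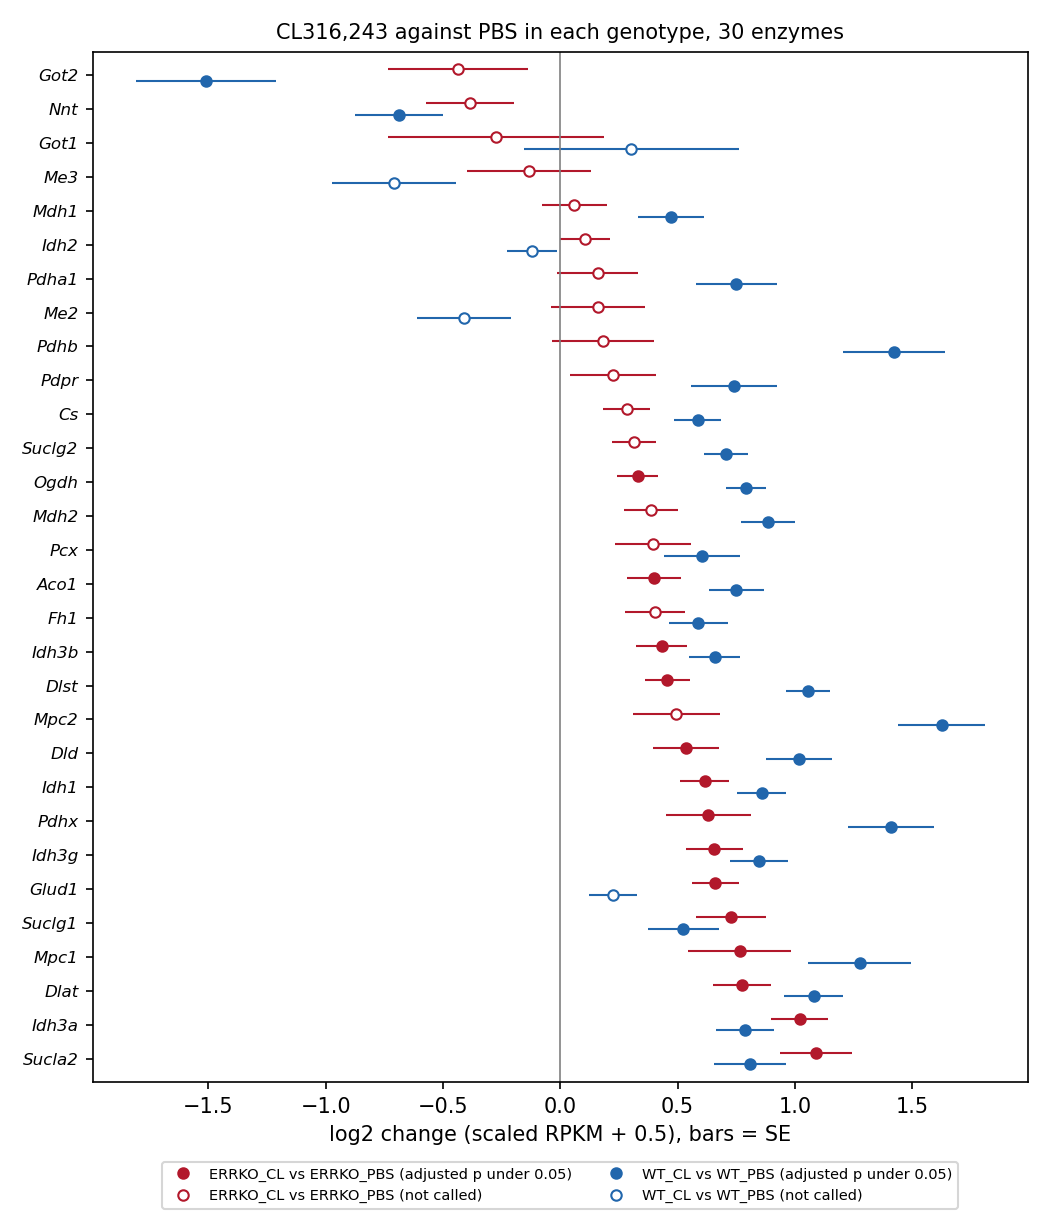
Log2 change (scaled RPKM plus 0.5) of each of the 30 enzymes with CL316,243 against PBS in ERRKO and in WT, ordered by the change in ERRKO, with bars of 1 SE (n = 3 libraries per group) and filled points for adjusted p under 0.05. Mpc2 and Pdhb rise by 1.63 and 1.42 in WT and are not called in ERRKO, while Sucla2 and Idh3a rise by 1.09 and 1.02 in ERRKO.

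Skeletal muscle transcripts differed between libraries, and some enzymes were highest in the ERRKO libraries that held most of them. The summed level of 14 muscle markers ranged from 264 to 1810 scaled RPKM in ERRKO_CL and from 156 to 3322 in ERRKO_PBS, against 70.1 to 469 in WT_CL and 42.7 to 356 in WT_PBS. Replicate 3 was highest in both ERRKO groups. Ckm, muscle creatine kinase, lay at 23.3, 87.1 and 212 in ERRKO_CL and 47.0, 11.1 and 389 in ERRKO_PBS, against 10.1, 0 and 49.0 in WT_CL and 37.9, 0.0517 and 0.804 in WT_PBS, and it was at 0 in 1 WT_CL library. In ERRKO_PBS against WT_PBS, where their median change was 3.59, limma called 0 of the 14, with 9 at an unadjusted p under 0.05, while edgeR called 1 and DESeq2 3, all higher. The limma count was 11 without WT_PBS replicate 1 and 8 without ERRKO_PBS replicate 2. In ERRKO_CL against WT_CL limma called 1 of the 14 higher. Of all tested genes, 15.8% were higher under PBS and 19.8% under CL316,243. Got1, Got2, Me3 and Nnt were each highest within ERRKO_PBS and within ERRKO_CL in replicate 3. Idh3b, Ogdh and Mdh2, at higher levels, shared this rank (85.2, 33.6 and 105 in ERRKO_PBS, 111, 42.8 and 137 in ERRKO_CL) but not the gap. ERRKO_PBS replicate 3 against replicates 1 and 2 was 9.28 against 2.17 and 1.30 for Got1 and 13.3 against 6.30 and 4.65 for Got2. For Me3 it was 0.940 against 0.215 and 0.144, and for Nnt 4.44 against 2.51 and 2.86. For Idh3b it was 85.2 against 69.4 and 80.5, for Ogdh 33.6 against 31.6 and 32.8, and for Mdh2 105 against 90.5 and 99.9. In WT_PBS replicate 1, where Ckm was highest of its group, Got1, Got2 and Nnt were highest and Me3 was lowest (12.6). In WT_CL replicate 3, with the highest Ckm of its group, Got1 and Got2 were highest and Me3 and Nnt were not. Without both ERRKO replicate 3 libraries, 24 members were lower and 1 higher under PBS, and 24 lower and 3 higher under CL316,243. Me3 stayed at -4.30 and -3.52 there, and Got2 was called lower under both treatments (-2.22 and -0.98). Got1 was called lower under PBS (-1.55, adjusted p = 0.000166). The part of muscle RNA in the values of Got1, Got2, Me3 and Nnt beyond that was not tested.

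**Figure D5:**
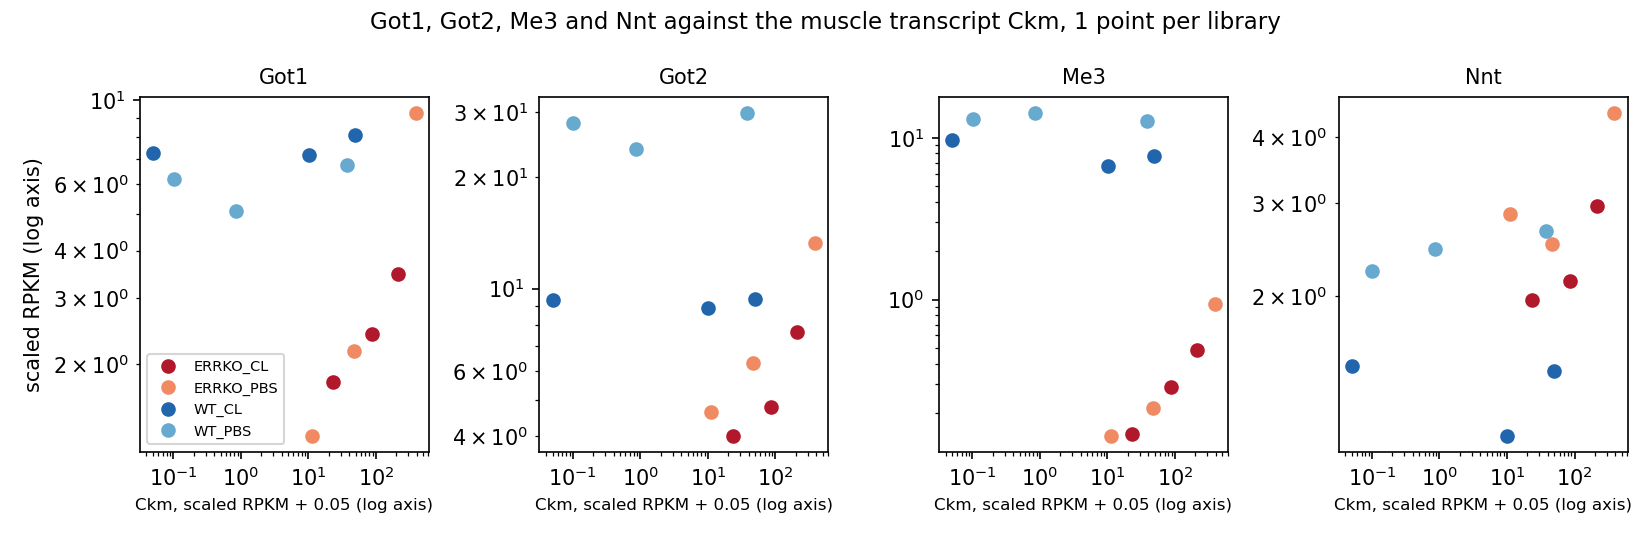
Scaled RPKM of Got1, Got2, Me3 and Nnt (log axis) against scaled RPKM of the muscle transcript Ckm plus 0.05 (log axis), 1 point per library and a colour per group. In ERRKO groups the library with the highest Ckm, replicate 3, also has the highest Got1, Got2, Me3 and Nnt, and Me3 in every ERRKO library is below every WT library.

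Macrophage markers moved with the agonist. Their summed level, over 8 genes, was 152 to 199 in ERRKO_CL and 259 to 298 in ERRKO_PBS, and it was 136 to 172 in WT_CL and 237 to 462 in WT_PBS. Of the 8, 7 were lower in WT_CL than in WT_PBS and 2 lower in ERRKO_CL than in ERRKO_PBS, C1qa and C1qb, calls lost without both ERRKO replicate 3 libraries (adjusted p = 0.0702 and 0.0575). Of all tested genes, 12.6% were lower with the agonist in WT and 3.62% in ERRKO. By genotype, limma called 0 in ERRKO_PBS against WT_PBS, where 1 was lower at an unadjusted p under 0.05, edgeR called 0 and DESeq2 1 lower, and limma called 2 higher in ERRKO_CL against WT_CL, Csf1r (0.72 ± 0.18) and Mrc1 (0.63 ± 0.17). By the same rule 18.4% of all tested genes were lower and 15.8% higher in ERRKO_PBS against WT_PBS, and 21.6% and 19.8% in ERRKO_CL against WT_CL. The part of the macrophage markers in the results was not tested. The 5 endothelial markers summed to between 134 and 222 in every library, with 2 lower in ERRKO_PBS against WT_PBS and 1 lower in ERRKO_CL against WT_CL. The first count was 5 without WT_PBS replicate 3 and 1 without any other single library. In ERRKO_PBS against WT_PBS all 5 were lower at an unadjusted p under 0.05 by limma, edgeR and DESeq2. After adjustment edgeR called 2 of them lower and DESeq2 5. In ERRKO_CL against WT_CL edgeR and DESeq2 called 1 lower each.

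Neighbouring genes of the pathway, 34 in number, were taken as a list of regulators, carriers and enzymes of adjoining steps. Of these 32 passed the filter, and Ogdhl and Slc25a13 did not. In ERRKO_PBS against WT_PBS 14 were lower and 6 higher, and in ERRKO_CL against WT_CL 16 were lower and 6 higher. Over all tested genes, 18.4% were lower and 15.8% higher under PBS, and 21.6% and 19.8% under CL316,243. The counts of higher neighbours are thus near the shares over all genes. All 4 succinate dehydrogenase subunits, which join the cycle to the respiratory chain, fell under both treatments, of which Sdhb and Sdhc are counted here after their values were seen. Sdhd lay at 99.3, 85.7 and 94.3 in ERRKO_CL and 56.4, 71.2 and 67.3 in ERRKO_PBS, against 769, 711 and 742 in WT_CL and 352, 352 and 450.0 in WT_PBS (-2.55 ± 0.12, adjusted p = 3.50e-08 under PBS and -2.99 ± 0.12, adjusted p = 7.31e-09 under CL316,243), and Sdha changed by -2.29 ± 0.10 under CL316,243. Ldhb, the lactate dehydrogenase subunit of oxidative tissues, lay at 37.0, 33.4 and 48.9 in ERRKO_CL and 26.1, 29.1 and 36.2 in ERRKO_PBS, against 508, 458 and 496 in WT_CL and 379, 378 and 473 in WT_PBS (-3.74 ± 0.16, adjusted p = 1.06e-08 under PBS). Acss1, the mitochondrial acetyl-CoA synthetase, changed by -1.59 ± 0.07, adjusted p = 2.84e-08 under PBS.

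Some neighbours rose in ERRKO, and Gpt2, Slc25a10 and Gpt are named here after their values were seen. Gpt2, the mitochondrial alanine aminotransferase that joins pyruvate to oxoglutarate, lay at 39.2, 44.1 and 49.9 in ERRKO_CL and 24.6, 27.2 and 23.9 in ERRKO_PBS, against 5.68, 6.13 and 6.24 in WT_CL and 3.11, 3.48 and 5.79 in WT_PBS (2.52 ± 0.17, adjusted p = 4.57e-07 under PBS). Slc25a10, the dicarboxylate carrier, lay at 60.5, 47.6 and 61.7 in ERRKO_CL and 34.8, 30.3 and 24.9 in ERRKO_PBS, against 7.46, 9.54 and 6.87 in WT_CL and 2.58, 4.06 and 7.22 in WT_PBS (2.66 ± 0.27, adjusted p = 1.07e-05 under PBS). Every ERRKO library was above every WT library for both. Beside the falls of Got2 and Me3, Gpt2 and Pcx were therefore mitochondrial enzymes of pyruvate and transamination with higher levels in ERRKO.

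With the agonist, 16 of the 32 neighbours rose and 1 fell in WT, and 9 rose and 0 fell in ERRKO, where limma had 0 lower at an unadjusted p under 0.05 and edgeR and DESeq2 called 0 lower. Over all tested genes, 18% rose and 12.6% fell in WT, and 6.68% rose and 3.62% fell in ERRKO. The fall in WT was that of Pck2, the mitochondrial phosphoenolpyruvate carboxykinase, at 6.03, 4.42 and 5.85 in WT_CL, against 11.7, 12.3 and 11.6 in WT_PBS (-1.07 ± 0.13, adjusted p = 0.000108). Sdha (0.81 ± 0.10), Sdhd (0.95 ± 0.12) and Lipt1, which attaches lipoic acid to the E2 components (1.21 ± 0.18), were among the rises in WT. Acss1 (0.52 ± 0.07), Pdp2, a phosphatase that activates pyruvate dehydrogenase (0.85 ± 0.14), and Gpt2 (0.80 ± 0.17) were among those in ERRKO. DESeq2 called 13 of the neighbours higher in ERRKO, and limma 14 without WT_PBS replicate 3, 5 without ERRKO_CL replicate 3, and 4 without ERRKO_PBS replicate 1 or without both ERRKO replicate 3 libraries. The Gpt2 rise was lost without ERRKO_PBS replicate 1, ERRKO_CL replicate 3 or both ERRKO replicate 3 libraries (adjusted p = 0.115 for the last). For the interaction 2 were called higher, Pck2 (1.25 ± 0.18, adjusted p = 0.00338) and Acss1 (0.51 ± 0.11, adjusted p = 0.0239), and 1 lower, Ldha, the lactate dehydrogenase subunit of glycolytic tissues (-1.13 ± 0.27, adjusted p = 0.0403). Over all tested genes the interaction called 1.89% higher and 2.02% lower. Without both ERRKO replicate 3 libraries Pck2 was called, and the calls of Acss1 (adjusted p = 0.0846) and Ldha (adjusted p = 0.0536) were lost. When single libraries were left out, Pck2 was kept whichever of the 12 was left out, Acss1 without 7 (adjusted p up to 0.0618) and Ldha without 3 (adjusted p up to 0.0962), and 4 neighbours were lower without WT_PBS replicate 3 and 2 without WT_CL replicate 1. Ldha lay at 207, 198 and 271 in ERRKO_CL and 239, 251 and 211 in ERRKO_PBS, against 523, 704 and 614 in WT_CL and 273, 232 and 386 in WT_PBS, so it was high in WT_CL alone.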

How the data were processed

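Brown adipose tissue RNA of 12 libraries in 4 groups of 3 was analysed. The authors deposited RPKM values for 24452 genes and a second table of 12380 genes on a linear signal scale, whose values were whole multiples (100% within 0.01) of what 1 read is worth in each library, so reads were recovered from it. Tools named in the submitters' processing notes are STAR 2.3.0, cutadapt, edgeR and bcl2fastq 2.16.0.10. For the read counter, the gene annotation, strand handling and genome build of both tables, no source used here gives an answer, so coordinates and overlaps are those of GRCm38.

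RPKM were divided by median-of-ratios factors, and log2(scaled RPKM + 0.5) was fitted with limma 3.58.1 in R 4.3.3 (trended empirical Bayes, 4 group means, 12 libraries, 8 residual degrees of freedom) over 12249 genes with a mean of at least 0.5 RPKM. A fold change on this scale understates the change of genes at low level. P-values were adjusted over all genes tested, with 0.05 as the threshold. Ratios used exact permutation tests. Alternatives were the deposited scale, quantile normalization, pseudocounts of 0.1 and 1, other filters, 2-group fits, a replicate block, the second table, edgeR 4.0.16 and DESeq2 1.42.0 on recovered reads, and leaving out libraries. The limma, edgeR and permutation scripts were tested on simulated data.

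The members, lists and markers were chosen with earlier results of these data known. All 30 members are reported. For each comparison, full values go to the 5 largest changes among called members, members called against the majority, members not called where there are at most 6, and all isoform partners. Of the neighbouring genes, the 4 with the smallest p per comparison are named, but 1 such gene and the ratio that uses it are not reported here.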

Additional observations from a re-analysis of the deposited data

Results flagged for a closer look

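For 3 enzymes the response to the agonist differed between the genotypes by the limma interaction term: Dlst by -0.60, Pdhb by -1.24 and Mpc2 by -1.13 (log2, ERRKO response minus WT response). All 3 rose in WT, and each had a smaller value in ERRKO, where Dlst alone was called. These calls were lost in most fits that left out a library, as given with the interaction above.

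The genotype difference of the Got2/Got1 log2 ratio was negative under PBS and positive under CL316,243, in every library of each stratum, and the first minus the second was -1.69. The agonist difference of the Mpc1/Mpc2 log2 ratio was positive in ERRKO and negative in WT, and the first minus the second was 0.62. Neither of these 2 differences was tested.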

How the results depend on the processing

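Of the called members, 22 of 27 kept their call and direction in ERRKO_PBS against WT_PBS under every alternative run, 24 of 26 in ERRKO_CL against WT_CL, 16 of 25 in WT_CL against WT_PBS, 5 of 14 in ERRKO_CL against ERRKO_PBS and 0 of 3 for the interaction. The cause of the changes below was not tested.

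On the deposited scale, 8877 genes were called in ERRKO_PBS against WT_PBS with 6 members higher, 9451 in ERRKO_CL against WT_CL with 6 members higher, 5 members were lower in WT_CL against WT_PBS, 2068 genes were called in ERRKO_CL against ERRKO_PBS with 7 members higher, and 1 member was higher for the interaction. Signs turned there for Suclg2 (0.0403) and Glud1 (0.22) in ERRKO_PBS against WT_PBS, for Glud1 in WT_CL against WT_PBS (-0.10), and in ERRKO_CL against ERRKO_PBS for Idh2 (-0.0935), Mdh1 (-0.139), Me2 (-0.0256), Pdha1 (-0.0395) and Pdhb (-0.0174). Under quantile normalization 6 members were higher in ERRKO_CL against WT_CL and 4 for the interaction. Signs turned for Idh2 (-0.079), Mdh1 (-0.147) and Pdha1 (-0.0315) in ERRKO_CL against ERRKO_PBS, and for Cs (0.20), Idh3b (0.0826) and Idh3g (0.20) in the interaction.

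With only the groups compared, 1 member was higher in ERRKO_PBS against WT_PBS, and with no filter 1 was lower for the interaction. DESeq2 called 823 genes for the interaction, with 5 members lower and 1 higher. The replicate numbers did not pair the samples: 7 of 18 same-numbered pairs correlated above 0.1 (range -0.39 to 0.45), and 5 of 12 libraries correlated best with their own number. With the replicate block, 1 member was lower for the interaction. For ratios the block allows 64 label exchanges and a smallest exact p of 0.0312. All 8 ratio differences called without the block were at that smallest p, which gave an adjusted p of 0.0764, so these lost calls say nothing of stability. They were genotype for Idh2/Idh1 (-1.62), Mdh2/Mdh1 (-0.47), Me3/Me1 (-5.66), Sucla2/Suclg2 (-1.34) and Idh3a/Idh3b (1.26), and agonist for Idh2/Idh1 (-0.75), Mdh2/Mdh1 (0.37) and Idh3a/Idh3b (0.36).

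When single libraries were left out, members higher in ERRKO_PBS against WT_PBS numbered 1 to 3 and members lower in WT_CL against WT_PBS 1 to 3. In ERRKO_CL against ERRKO_PBS, 529 to 1641 genes were called, with 6 to 18 members higher. For the interaction, 225 to 822 genes were called, with 0 to 7 members lower and 0 to 1 higher, the highest counts of genes and of lower members being without WT_PBS replicate 3. Ratio differences ranged from -0.18 to 0.152 (Got2/Got1, genotype), -1.24 to -0.908 (Got2/Got1, agonist), -0.0444 to 0.295 (Me2/Me1, genotype), 0.386 to 0.484 (Sucla2/Suclg2, agonist), -0.0809 to 0.0055 (Mpc1/Mpc2, agonist) and -0.405 to -0.312 (Pdha1/Pdhb, agonist). Some signs turned, all for values that were not called. In ERRKO_CL against WT_CL, Idh1 ranged from -0.0186 (without WT_CL replicate 1) to 0.173 and Glud1 from -0.0011 (without ERRKO_CL replicate 1) to 0.113. In ERRKO_CL against ERRKO_PBS, Mdh1 ranged from -0.0121 to 0.135, below 0 without ERRKO_PBS replicate 1 or ERRKO_CL replicate 3. Got1 ranged from -0.774 to 0.443 and Me3 from -0.348 to 0.223, both highest without ERRKO_PBS replicate 3, and Me2 from -0.054 (without ERRKO_CL replicate 3) to 0.27. Got1 in the interaction ranged from -1.08 to 0.143, highest without ERRKO_PBS replicate 3.

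Without both ERRKO replicate 3 libraries, 1 member was higher in ERRKO_PBS against WT_PBS, and in ERRKO_CL against ERRKO_PBS 464 genes were called with 5 members higher, Got1 at 0.238, Me2 at -0.0457, Me3 at 0.07, Pdha1 at -0.0839 and Pdhb at -0.11. The interaction called 215 genes, with 1 member lower and 1 higher. Got2/Got1 differed by 0.14 for genotype and -1.25 for agonist, Me2/Me1 by -0.0838 for genotype, and Idh3a/Idh3b by 0.35 for agonist (exact permutation test, adjusted p = 0.0667).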
